A study of Mus musculus with 8 samples.

Results

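The 10 genes described here are Crybb3, Tmeff2, Bhlhe22, Cd209c, Gldn, Tmem229a, Vil1, Tff3, Slc30a3 and Pcp4l1, taken from 16640 genes in the authors' deposited table for their large rise in Huwe1-deleted livers. Livers of 4 WT mice and 4 mice with a liver-specific Huwe1 knockout (Huwe1_LKO) were compared by bulk RNA sequencing, all at 1 year of age on a chow diet. Huwe1 encodes a HECT-type ubiquitin ligase, and the Cre line, the deleted exons and the sex of the mice are unknown here. The WT and Huwe1_LKO columns of that table chose the genes, so their levels and fold changes below are descriptions with no test of their own. The table holds 1 normalized expression value per gene and group, so no spread over livers can be shown. Errors are those implied by the authors' p-values, as standard errors on the log2 scale.

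Most of these genes are textbook products of cells other than hepatocytes. Crybb3 encodes a beta-crystallin, a structural protein of the eye lens. Bhlhe22, a neuronal transcription factor, Slc30a3, which loads zinc into synaptic vesicles, and Gldn (gliomedin), which gathers sodium channels at nodes of Ranvier, are known from the nervous system. Tmeff2 encodes a membrane protein with follistatin-like and EGF-like domains, best known from brain and prostate. Vil1 (villin) bundles actin in intestinal microvilli, and Tff3 is a trefoil peptide of mucus. Cd209c encodes a C-type lectin of the CD209 family, Pcp4l1 a small relative of the neuronal calmodulin-binding protein PEP-19, and Tmem229a a membrane protein of little-known role. Other tissues were not measured, so the label "atypical for liver" rests on this background knowledge alone.

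Across the whole table the group values summed to 17347886 in WT and 17533080 in Huwe1_LKO, and the authors' deposited adjusted p was under 0.05 for 9.97% of genes, 4.41% higher and 5.56% lower in Huwe1_LKO. These are 734 and 925 genes, and after centring on the most abundant genes 1168 were higher and 625 lower, so the larger side turned. Huwe1 itself was lower, at 66.9% of its WT value in the deposited table (-0.58 on the log2 scale with a standard error of 0.13, adjusted p = 0.000425). Hepatocyte markers were abundant in both groups, and 3 of 12 rose (Apoa1, Serpina1a and Hnf4a), with deposited log2 fold changes of 0.52, 0.49 and 0.37. RNA of the Y chromosome was present in both groups, with deposited values for 4 genes that summed to 1818 in WT and 2061 in Huwe1_LKO, and 1 of them, Ddx3y, rose from 681 to 939.

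The sequences just before annotated starts of a few of these genes are shown because the genes, each picked for its rise, share no family or locus. RefSeq (GRCm38.p6) gave promoter windows for 8 of the 10 genes, each with 250 bases before and 50 after a start. The 250 bases before the start are printed for the pair with the most RNA per length in Huwe1_LKO (Crybb3 and Pcp4l1), for the gene with the second largest fold (Tmeff2) and for villin. The windows of Pcp4l1 and Vil1 lie just outside the loci given below, while those of Crybb3 and Tmeff2 belong to starts inside the longest annotated locus. Capitals mark a match to a searched motif on either strand.
Crybb3, chr5:113081585-113081834, minus strand: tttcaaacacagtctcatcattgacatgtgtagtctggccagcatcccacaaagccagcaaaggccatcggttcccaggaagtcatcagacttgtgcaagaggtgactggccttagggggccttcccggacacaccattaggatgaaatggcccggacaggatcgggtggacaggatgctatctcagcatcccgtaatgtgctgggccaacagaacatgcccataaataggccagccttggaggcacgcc
Pcp4l1, chr1:171196269-171196518, minus strand: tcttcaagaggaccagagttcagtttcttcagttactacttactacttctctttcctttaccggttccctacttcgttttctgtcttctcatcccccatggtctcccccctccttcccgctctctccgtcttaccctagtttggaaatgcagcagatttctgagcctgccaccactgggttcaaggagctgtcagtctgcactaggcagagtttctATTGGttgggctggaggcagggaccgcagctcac
Tmeff2, chr1:50927273-50927522, plus strand: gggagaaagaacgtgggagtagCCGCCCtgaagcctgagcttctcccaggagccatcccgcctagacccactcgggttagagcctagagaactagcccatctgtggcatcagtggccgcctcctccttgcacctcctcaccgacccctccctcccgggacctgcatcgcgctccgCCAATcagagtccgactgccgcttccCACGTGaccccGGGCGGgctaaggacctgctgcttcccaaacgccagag
Vil1, chr1:74409134-74409383, plus strand: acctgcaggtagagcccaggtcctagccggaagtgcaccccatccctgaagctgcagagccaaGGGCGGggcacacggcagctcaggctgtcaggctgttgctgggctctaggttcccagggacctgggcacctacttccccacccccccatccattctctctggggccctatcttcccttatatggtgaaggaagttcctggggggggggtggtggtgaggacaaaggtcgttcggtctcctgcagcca
The 8 motifs searched are each spelled out in the next paragraph.

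None of the motifs searched was found for all 8 genes. Slc30a3 had 2 windows, at separate starts, so the 8 genes had 9 windows, and a gene is counted where any of its windows held the motif, while the share of all is over single windows. The commonest match, GGGCGG (a GC box), was found for 5 of the 8 genes and in 55.5% of 16607 windows of genes in the table. CCAAT was found for 4 of 8 and stood in 37.4% of all windows. TATAAA was found for Pcp4l1, where it begins at the annotated start itself, and for Slc30a3, and in 8.85% of all windows. CACGTG was found only for Tmeff2 among the 8, and in 8.95% of all, and CAAAGTCCA only for Slc30a3, and in 0.530% of all. No match was found in these windows for AGGTCA (in 13.7% of all windows), for GTTAAT (in 5.15%) or for TGACNNNGC (in 13.8%). The windows of the members ranged from 44.7% G and C for Cd209c to 71.3% for Tmem229a, around a median of 59.0% over all windows. Crybb3 and Vil1 had 6 and 5 CG pairs in their windows and Tmeff2 and Tmem229a 24 each, against a median of 17. A match is a description of letters and not of a bound site.

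The lens gene Crybb3 (Entrez ID 12962; chromosome 5, 113075839 to 113082236 in GRCm38) stood first of all genes by fold. The authors' deposited table gives it 10.9 in WT and 512 in Huwe1_LKO, 46.9-fold higher, with a 95% interval of 29.3 to 74.99 from the implied standard error. The next gene, Tmeff2, was 18.3-fold higher (9.01 to 37.3), so the fold of Crybb3 was 2.56 times as large, and the intervals of the pair overlapped.

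The genes of the nervous system started from low values. Tmeff2 (chromosome 1, 50900683 to 51187270) went from 13.1 in WT to 239 in Huwe1_LKO in the deposited table. Bhlhe22 (chromosome 3, 18054325 to 18057514) went from 5.83 to 104 there, 17.8-fold (8.89 to 35.7). Gldn (chromosome 9, 54286486 to 54341777) had the lowest deposited values of the 10, 2.62 in WT and 41.2 in Huwe1_LKO, and a 15.7-fold difference (8.12 to 30.4). The vesicular zinc transporter gene Slc30a3 (chromosome 5, 31086106 to 31108244) went from 4.55 to 55.4 in the deposited table, 12.2-fold (7.19 to 20.7). The deposited folds appear shrunken toward 0, though no source used here states it. Such shrinkage would raise the lowest WT values and lower the folds of such genes.

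The epithelial pair reached similar folds at different levels. Vil1 (chromosome 1, 74409384 to 74435560) had deposited values of 3.69 and 49.6, 13.5-fold (7.29 to 24.8). Tff3 (chromosome 17, 31125306 to 31129611) went from 12.5 to 165 in the deposited table, 13.2-fold (7.22 to 24.1). Villin thus stayed among the lowest of the set after its rise.

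Of the other three, Cd209c and Pcp4l1 had the narrowest intervals of the 10. Cd209c (chromosome 8, 3940081 to 3954746) had deposited values of 27.6 and 455, 16.5-fold (11.5 to 23.6). Pcp4l1 (chromosome 1, 171173264 to 171196268) went from 90.4 to 1067 in the deposited table, 11.8-fold (8.35 to 16.7), the smallest fold of the 10 and the largest gain in value. Tmem229a (chromosome 6, 24951141 to 24956125) went from 11.7 to 174 there, 15.0-fold (9.18 to 24.4).

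**Figure D1:**
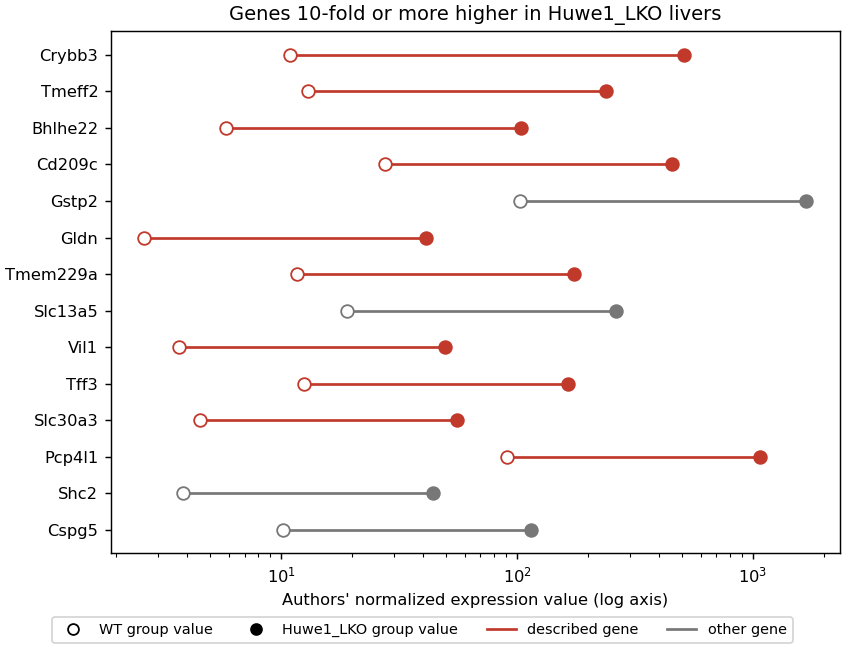
Authors' normalized expression value (x axis, log scale) of the 14 genes that were 10-fold or more higher in Huwe1_LKO, with the WT group value as an open point and the Huwe1_LKO group value as a filled point joined by a line. The 10 described genes (red) span 2.62 to 90.4 in WT and 41.2 to 1067 in Huwe1_LKO, so Huwe1_LKO values of the lowest genes lie below the WT value of Pcp4l1.

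The order of the folds below Crybb3 was not resolved. The 9 genes after it lay within 0.64 on the log2 scale, while their implied standard errors ran from 0.25 for Pcp4l1 to 0.52 for Tmeff2, and the 95% intervals of all 9 adjacent pairs among the 10 genes overlapped. How each gene varied among the livers cannot be told, as values per liver were not analysed here. All 10 carried an adjusted p under 0.05 in the authors' deposited table, from 3.51e-54 for Crybb3 to 3.26e-13 for Tmeff2. These p-values belong to the contrast that chose the genes, and nothing is read from them against the 4.41% of all genes called higher. Their median deposited log2 fold change was 3.94, against 0.02 over all genes.

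No natural gap separated the chosen genes from the next ones. They took 10 of the first 12 places by log2 fold change in the deposited table, and 14 genes of 16640 (0.0841%) were 10-fold or more higher. The 4 others were Gstp2 (glutathione transferase pi) and Slc13a5 (a citrate transporter), which lay inside the range of the 10, and Shc2 (a signalling adaptor) and Cspg5 (a neural proteoglycan), just outside it. Pcp4l1, the last of the 10, stood at 3.56 on the log2 scale by the deposited values, and Shc2, the next, at 3.51. Shc2 went from 3.84 to 43.8 and Cspg5 from 10.1 to 114 in the deposited table. By the distance between log2 values of both groups, Shc2 was the called gene outside the set nearest to Vil1, Gldn and Slc30a3. Cspg5 was nearest to Bhlhe22, Tmem229a and Tff3, Slc13a5 to Crybb3, Tmeff2 and Cd209c, and Gstp2 to Pcp4l1, on the same distance. With 2 group values per gene this likeness says only that level and fold were close.

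**Figure D2:**
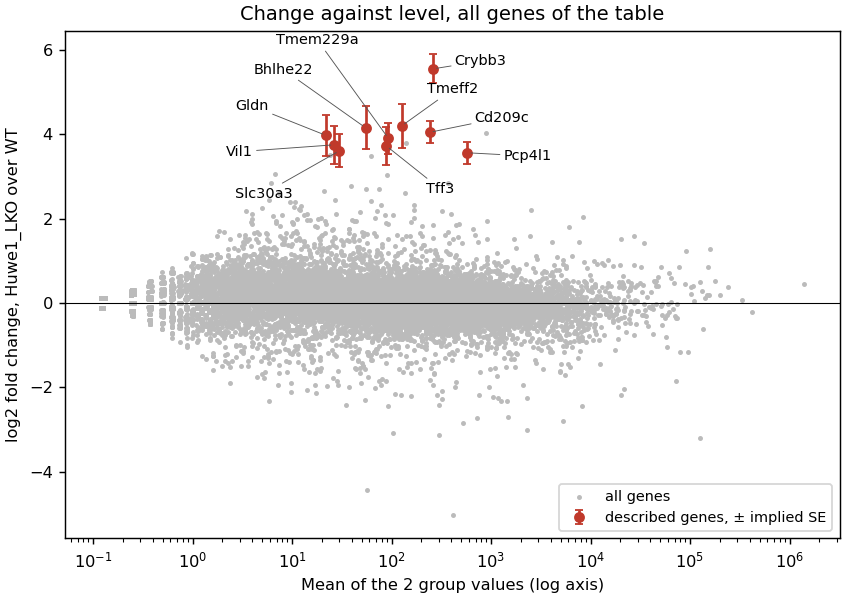
Log2 fold change of Huwe1_LKO over WT (y axis) against the mean of the 2 group values (x axis, log scale) for all 16640 genes in grey, with the 10 described genes in red and bars of ± 1 implied standard error. The red points lie between 3.56 and 5.55 at mean values from 21.9 to 579, above nearly all grey points at the same level.

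Read per length, the set moved from the lower part of the table to its middle and upper part. The value per kb of gene length was below the median of all genes (38.2) for 9 of the 10 in WT, computed from the authors' deposited values. Pcp4l1 was the exception, at 57.4 per kb in WT, the 56.5th percentile of all genes. This gene was thus not low in WT liver. In WT, Gldn (0.564 per kb), Vil1 (1.18), Bhlhe22 (1.82), Slc30a3 (2.27), Tmem229a (2.34) and Tmeff2 (3.91) formed a low group in the deposited values. Crybb3 (13.4 per kb), Cd209c (17.6) and Tff3 (27.3) stood higher in WT. In Huwe1_LKO, 5 of 10 passed the median of 39.6 per kb, namely Tmeff2 (71.7), Cd209c (290), Tff3 (361), Crybb3 (630) and Pcp4l1 (678), from the deposited values. The last pair stood at the 90.7th and 91.4th percentiles. Gldn, at 8.86 per kb in Huwe1_LKO, was still at the 33.0th percentile, and Vil1, at 15.9, at the 38.5th. As a sum of deposited values the 10 genes went from 183 to 2863, of which Crybb3 and Pcp4l1 made up 55.2% in Huwe1_LKO.

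**Figure D3:**
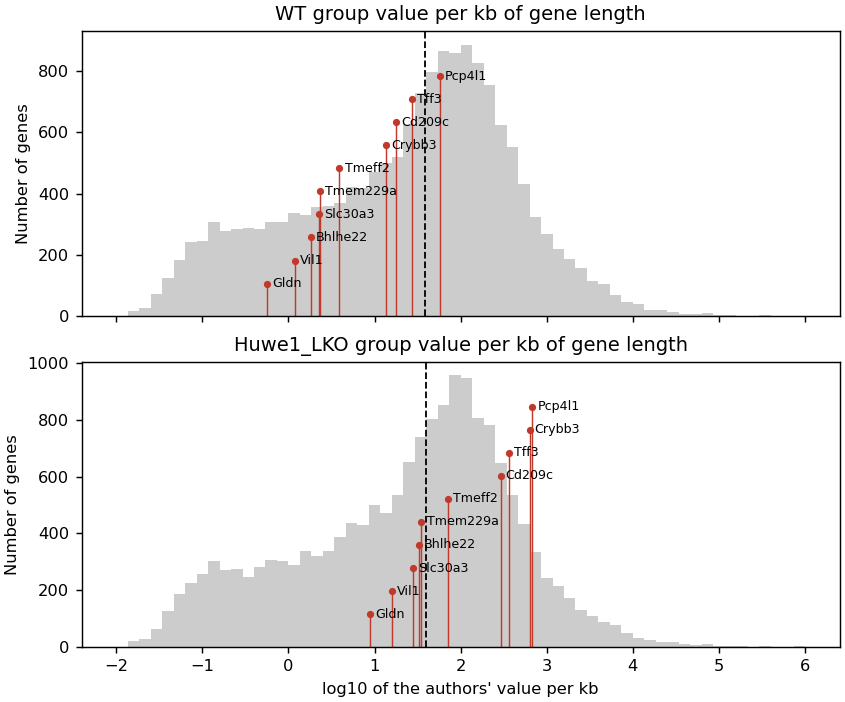
Number of genes (y axis) by log10 of the authors' value per kb of gene length (x axis) in WT (upper panel) and Huwe1_LKO (lower panel), with the 10 described genes as red lines and the median of all genes dashed. In WT 9 of the 10 lines lie left of the median, and in Huwe1_LKO 5 lie right of it; the heights of the red lines only separate the names.

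Shared sequence touched 2 of the 10 genes. In GENCODE M21 transcripts (GRCm38), 8 of the 10 genes shared no 50-base stretch with a transcript of another gene on either strand, and Tmeff2 shared 0.165% of its stretches. Cd209c shared 336 of 2135 stretches (15.7%) with 36 other genes, none of them another CD209 lectin, and how the counting split reads between them is not known, so its value is less certain. By comparison, Gstp2 shared 54.3%, mostly with Gstp1. An exon of the ubiquitin protease gene Usp37 overlaps 49 exon bases of Vil1 on the opposite strand, and Usp37 had deposited values of 80.9 and 106 (adjusted p = 0.151). Whether reads were counted by strand is not known.

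Most relatives of the 10 genes did not pass. Among 70 measured relatives of the 10 genes, the authors' deposited table calls 4 higher and 2 lower, 5.71% and 2.86%, against 4.41% and 5.56% of all genes, and their median log2 fold change was 0.00. Of 9 other crystallins none rose and Crybg2, a distant relative, fell from 66.4 to 25.7 by the deposited values (adjusted p = 0.0078). Of the 19 crystallins listed, 10 were measured with Crybb3 among them, and 5 of the 9 others had a mean value of 10 or more. The lens crystallin Cryaa had deposited values under 0.5 in both groups, Crybb1 0.253 in both groups and Cryba4 1.59 and 2.35. Crybb2 was not analysed here.

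Of the relatives, villin-like had the largest rise. Vill (villin-like) went from 14.8 in WT to 96.0 in Huwe1_LKO in the deposited table, 2.70 on the log2 scale (standard error 0.42, adjusted p = 1.09e-08), and shares no 50-base stretch with Vil1 or any other gene. The other members of the gelsolin family did not pass, with Gsn (gelsolin) at a deposited log2 fold change of -0.21 and Avil (advillin) at 0.40.

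The relatives of Bhlhe22 went both ways. Bhlha15, a factor of secretory cells, rose from 4.15 to 15.7 by the deposited values (adjusted p = 0.00441), and the clock factor Bhlhe41 rose from 106 to 218 (adjusted p = 0.0092). Olig1, a factor of oligodendrocytes and a close relative of Bhlhe22, fell from 417 to 108 by the deposited values (adjusted p = 3.31e-06). The neuronal factors Neurod1, Neurod2 and Neurog2 had deposited values under 1 in both groups.

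For 7 of the 10 genes, no measured relative rose, and Slc30a3 had one near the threshold. Slc30a5, a zinc transporter of the secretory pathway, rose from 512 to 708 by the deposited values (adjusted p = 0.0495), and the 8 others of the family did not pass. Of 8 other lectins of the CD209 list none passed in the authors' DESeq2 result, with 0 at an unadjusted p under 0.05. Cd209a, known from dendritic cells, had deposited values of 4.88 and 9.55, and Cd209b of 2.997 and 2.46. None of 12 other olfactomedin-domain genes passed in the DESeq2 result (2 at an unadjusted p under 0.05), and Olfm2 came nearest, from 15.3 to 31.7 (adjusted p = 0.0519). The other of the 2, Olfm3, was lower, at 123 and 76.7 (adjusted p = 0.0628). With only genes of a mean value of 10 or more, 1 gene of this list was called higher and 1 lower. Among 7 other genes of the TMEFF, agrin and follistatin list none passed in the DESeq2 result (1 at an unadjusted p under 0.05), with Tmeff1 at deposited values of 2.09 and 1.40 and Fst (follistatin) at 41.3 and 79.9 (adjusted p = 0.0691). Fst and Olfm2 passed when fold changes were centred on the most abundant genes (adjusted p = 0.0394 and 0.0291). Tff1 and Tff2, which lie beside Tff3, had deposited values of 1.91 and 2.86 and of 0.427 and 0.324. Tmem229b had 25.8 and 32.8 in the deposited table, and Pcp4, the PEP-19 gene, 0.600 and 0.654. None of 6 genes of the PEP-19 list other than Pcp4l1 passed in the DESeq2 result, with 0 at an unadjusted p under 0.05.

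**Figure D4:**
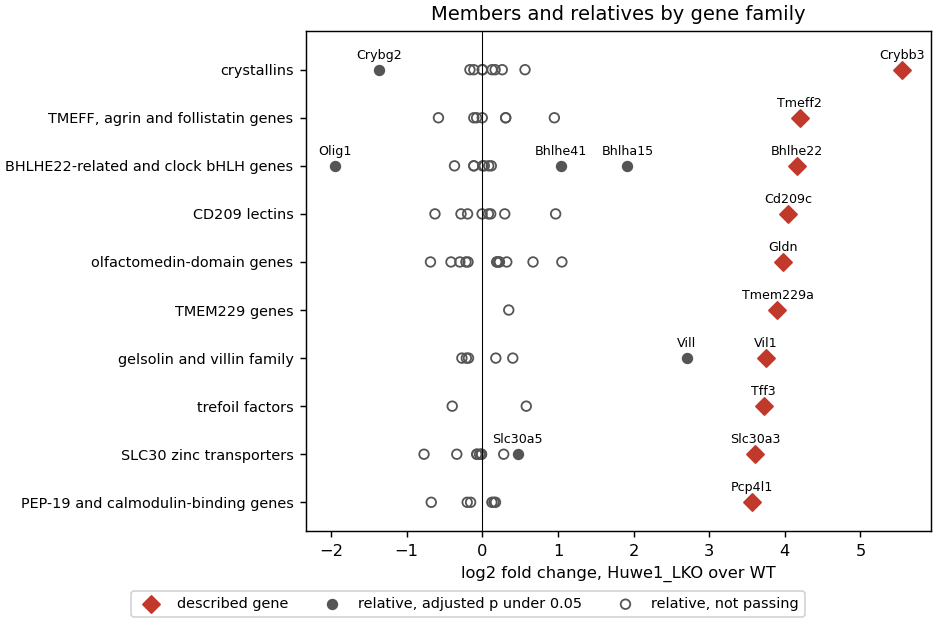
Log2 fold change of Huwe1_LKO over WT (x axis) for each described gene (red diamond) and its measured relatives (circles, filled where the authors' adjusted p was under 0.05), by family (y axis). The described genes lie from 3.56 to 5.55 and, of the relatives, Vill at 2.70 comes nearest.

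Listed genes that work beside villin were called in both directions, and 1 of those beside gliomedin rose. At an unadjusted p under 0.05 in the DESeq2 result stood 7 of 13 brush border genes and 2 of 15 node and Schwann cell genes. Of 13 measured brush border genes, where villin acts, 1 was called higher and 2 lower in the authors' deposited table (median log2 fold change 0.08), where 4.41% and 5.56% of all genes were so called. Centring added Baiap2l1 (801 and 1067, adjusted p = 0.119 and 0.042 after centring) to those higher. Pls1 (plastin 1), which bundles microvillar actin together with villin, fell from 26.2 to 8.23 (adjusted p = 0.000241) and Myo1d from 390 to 207 (adjusted p = 1.2e-05), both as deposited. The scaffold gene Slc9a3r1 rose from 4671 to 6513 (deposited adjusted p = 0.0437). Of 15 genes of nodes of Ranvier and Schwann cells, where gliomedin acts, the sodium channel gene Scn8a alone rose, from 15.8 to 40.0 by the deposited values (adjusted p = 0.0396). Its partners at the node had deposited values of 5.58 and 10.9 (Nfasc) and of 0.115 and 0.124 (Nrcam), and neither passed.

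Most markers of the tissues these genes are known from did not pass. None of 16 measured neuronal markers passed in the authors' DESeq2 result (2 at an unadjusted p under 0.05), and their summed deposited values were 286 in WT and 365 in Huwe1_LKO. The 2 were Syt1 (194 and 260, adjusted p = 0.205) and Rbfox3 (9.17 and 15.7, adjusted p = 0.233), both higher in Huwe1_LKO. Only 5 of the 16 had a mean value of 10 or more. Snap25 had 0.254 in both groups and Slc17a7, the glutamate transporter of the vesicles that hold the Slc30a3 product, 0.125 and 0.136 in the deposited table. Of 8 lens markers 2 rose, the transcription factor genes Hsf4 (212 to 318) and Prox1 (318 to 454), both already high in WT in the deposited table. The lens-restricted Mip had deposited values of 0.705 and 1.08 and Bfsp2 of 0.131 and 0.121. The summed lens list had deposited values of 883 and 1159. Of 15 listed goblet and intestinal epithelial markers 7 were measured, and 1 of these had a mean value of 10 or more. None of the 7 passed in the DESeq2 result (2 at an unadjusted p under 0.05, Lgals4 higher and Fcgbp lower, at 12.5 and 5.78). Muc2 had deposited values of 2.48 and 1.78, and Clca1 of 0.224 and 0.276. The sum of the 7, 196 and 320 in the deposited values, was mostly Lgals4, at 179 and 309 (adjusted p = 0.0624, and 0.0314 after centring).

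Bile duct cells also make trefoil factor 3 and villin, so their markers stand beside those 2 genes. By the authors' deposited values, 11 of 12 cholangiocyte markers missed the threshold. The duct keratins did not pass, with deposited values of 18.01 and 19.3 for Krt19 and of 13.9 and 9.40 for Krt7, and Epcam had 15.9 and 20.8. The summed list had deposited values of 1301 and 2141, of which Spp1 made 722 and 1410 (adjusted p = 0.174). The part of duct cells in the rise of Tff3 and Vil1 was not tested, and in bulk tissue more cells of a type and more RNA per cell cannot be told apart.

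Markers of immune and vascular cells, which express CD209 lectins, mostly did not pass. None of 10 Kupffer cell, 8 dendritic cell and 10 lymphocyte markers passed in the authors' DESeq2 result, with 0 at an unadjusted p under 0.05 in each list. Their summed deposited values were 4038 and 4701, 168 and 179, and 171 and 218. Of 9 sinusoidal endothelial markers, Fcgr2b alone rose, from 341 to 505 by the deposited values (adjusted p = 0.0202), and the sum was 2784 and 3029. Of 10 stellate cell and fibroblast markers, Hand2 rose from 166 to 288 and Lum from 113 to 188 in the deposited table, and the sum was 5226 and 5902. The part of these cells in the rise of Cd209c was not tested. Of 10 pancreatic acinar markers, the elastase genes Cela1 (216 to 405) and Cela2a (4.17 to 20.5) rose in the deposited table, and the 8 others had mean values under 1.

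The members were spread over 7 chromosomes, and most of their neighbours did not pass. Of 93 measured genes that start within 250 kb of a member, the authors' deposited table calls 6 higher and 5 lower, 6.45% and 5.38%, beside 4.41% and 5.56% of all genes, and their median log2 fold change was 0.04. Cd209c had 8 measured neighbours, 6 of them CD209 genes besides Clec4g and Evi5l, and no adjusted p among them was under 0.05 in the DESeq2 result. Slc37a1, a sugar phosphate carrier 166 kb upstream of Tff3, rose most, from 26.4 to 132 by the deposited values (adjusted p = 5.17e-09), while Tff1 and Tff2 lie between that gene and Tff3. Grk3, a receptor kinase and the nearest measured gene downstream of Crybb3 (66.6 kb), rose from 101 to 302 (adjusted p = 2.02e-09) and Dmxl2, 215 kb downstream of Gldn, from 323 to 480 in the deposited table. Emilin1 and Agbl5 near Slc30a3, and Fcgr2b near Pcp4l1, were the other genes that rose, with deposited log2 fold changes of 0.63, 0.47 and 0.57. Those that fell were Khk (-0.74) and Gckr (-0.39) near Slc30a3, Pnkd (-0.86) and Bcs1l (-0.48) near Vil1, and Apoa2 (-0.63), close upstream of Pcp4l1, as deposited log2 fold changes. Of the 20 genes next to a member on either side, Grk3 and Dmxl2 alone passed. Next to Pcp4l1, the hepatocyte receptor gene Nr1i3 had deposited values of 2061 and 1225 (adjusted p = 0.127). Bhlhe22 had Cyp7b1 190 kb downstream, with 2633 and 3973 by the deposited values (adjusted p = 0.12), and Tmeff2 had no measured gene within 250 kb.

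**Figure D5:**
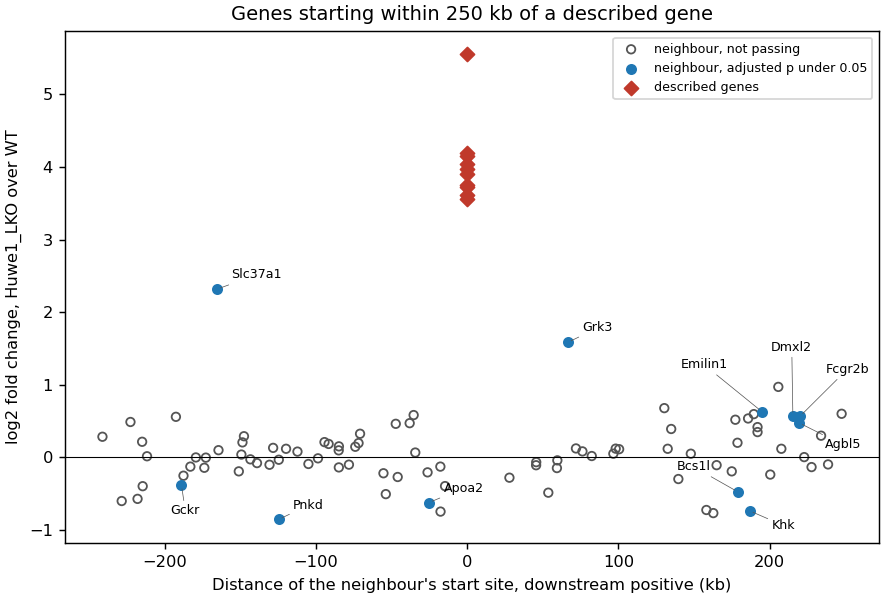
Log2 fold change of Huwe1_LKO over WT (y axis) of the 93 measured genes that start within 250 kb of a described gene, against the distance of their start site from its start (x axis, kb, downstream positive), with filled circles where the authors' adjusted p was under 0.05. Slc37a1 at 2.32 and Grk3 at 1.58 stand apart from the other neighbours, and the described genes (red diamonds at 0 kb) lie above both.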

How the data were processed

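Total liver RNA came from 4 WT and 4 Huwe1_LKO mice and was extracted by column, and BGI prepared and sequenced the libraries, as the labels' protocols say. The submitters' processing notes name mm10 and DESeq2, with aligner, counter and filters not given in the sources used here. Deposited by the authors was 1 table, with a normalized expression signal for each group, a log2 fold change and p-values, per the file headers. The deposited log2 fold change equals the log2 ratio of the group values to within 4.71e-08, and recomputing Benjamini-Hochberg values over the 16640 genes gave the deposited adjusted p-value within 1.74e-06. By the values of genes with few reads, the deposited folds appear shrunken toward 0.

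No count model could be fitted to 1 value per gene and group, so gene calls are the authors', at an adjusted p under 0.05. The implied standard error divides the absolute log2 fold change by the normal quantile of the p-value, which assumes a Wald test, and the 95% intervals come from it. The p-values come from the authors' DESeq2 model of these 8 livers. The implied standard errors are thus values of that model and not the measured spread of each gene over livers. How much of the spread among livers is technical is unknown here. The code for the adjustment and the standard error was tested on data simulated with the same normal formula, which checks the code only. Whether the deposited p-values are Wald tests of the deposited folds was not tested. Of 298 list entries, 263 were matched by symbol and 1 by a RefSeq synonym. The members, the 26 gene lists and the tests were chosen with earlier results of these data known. Named besides the members were up to 4 called genes per list by smallest adjusted p, relatives of members, nearest and called neighbours, the nearest called gene by level, the 20 largest rises and Huwe1. Other list and marker genes were named for their role, after their values were seen, and a few listed genes are not reported here. Software used was Python (3.11.15) with scipy (1.17.1), pandas (2.3.3), numpy (2.4.6) and matplotlib (3.10.9).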

Additional observations from a re-analysis of the deposited data

How the results depend on the processing

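The alternatives were an adjusted p under 0.01, a change of 2-fold or more, only genes with a mean value of 10 or more, Bonferroni adjustment, and log2 fold changes centred on the median of the 2080 most abundant genes, which lay at -0.08. All 10 described genes stayed called, which their choice by large folds in this contrast had fixed in advance. Over all genes, 734 were higher and 925 lower, against 414 and 561 at an adjusted p under 0.01, 251 and 201 at 2-fold or more, and 163 and 216 by Bonferroni. With only genes of a mean value of 10 or more, 794 were higher and 1006 lower. Centring gave 1168 higher and 625 lower and moved the higher share of calls from 44.2% to 65.1%. The relatives called went from 4 higher and 2 lower to 1 and 1 by Bonferroni and to 6 and 2 after centring. Of 116 cell type markers, 12 were called higher (10.3%, against 4.41% of all genes) and 0 lower (against 5.56%). The 12 became 4 at an adjusted p under 0.01, 1 at 2-fold or more and 1 by Bonferroni. These rules are stricter by construction. Markers called higher numbered 14 with only genes of a mean value of 10 or more and 15 after centring. In each setting 0 markers were called lower. Of 38 calls among listed genes, centring lost 0, reversed 0 and added 6 (Alb, Baiap2l1, Fst, Lgals4, Olfm2 and Prom1). No paired analysis was possible because the table holds 1 value per gene and group, and for the same reason no liver could be left out. Depth per liver is unknown here, and the lowest WT values, such as 2.62 for Gldn, rest on few reads.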

Other observations

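Other genes stood among the 20 largest rises. Wnk4, a kinase of renal salt transport, rose from 19.8 to 162 by the deposited values (adjusted p = 9.5e-36), and the chemokine Cxcl14 from 90.1 to 643. Kcnt2, a potassium channel of neurons, rose from 10.05 to 68.8 and Cyp2c69, a cytochrome P450 with close copies, from 20.1 to 131 in the deposited table. The neutrophil gene Cd177 (1.45 to 12.1) and the sperm gene Zan (1.496 to 10.8) complete the 20 in that table.

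In the annotation terms of the deposited table, 3 of the 10 genes (Tff3, Tmeff2 and Vil1) carry a term with the words wound healing, as do 0.799% of all genes. The words were chosen after the terms had been seen. Pcp4l1 carries no term in that table.

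Of 21 chromatin repressor genes, 5 were called higher and 0 lower in the authors' deposited table (median log2 fold change 0.12), where 4.41% and 5.56% of all genes were so called. The 5 became 1 at an adjusted p under 0.01 and 0 at 2-fold or more or by Bonferroni. They numbered 5 with only genes of a mean value of 10 or more and 5 after centring. Dnmt3a, a DNA methyltransferase, rose from 281 to 455 by the deposited values (adjusted p = 0.00307). Cbx8, Trim28 and Bmi1 had deposited log2 fold changes of 0.47, 0.26 and 0.50. Of 9 oncofetal genes, Afp (alpha-fetoprotein) alone rose, from 9.36 to 34.3 by the deposited values (adjusted p = 7.97e-06).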
